A study of Mus musculus with 12 samples.

Results

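The 34 genes described here are markers or characteristic products of astrocytes, measured in the brains of BALB/c mice, either lacking the cytokine gene Il18 or wild type. Members were found by their gene name on the arrays, and 1 probe was used per gene, the one with the brightest mean signal. All 34 listed genes were found among the 26495 genes measured, and all 34 were well above background on all 12 arrays. The groups were Il18 knockout at 6 weeks, wild type at 6 weeks, Il18 knockout at 12 weeks and wild type at 12 weeks, with 3 brains each and no treatment. RNA of the whole organ was labelled with Cy3 and hybridised to Agilent one-colour arrays, 1 brain per array. The labels give neither the deleted part of Il18, nor the sex, litter or supplier of the mice, nor the number of backcrosses.

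Astrocytes are the star-shaped glia that clear glutamate and potassium from the space around synapses, contact blood vessels with endfeet rich in water channels, and are coupled to each other by gap junctions. They also supply neurons with glutamine, secrete proteins that act on synapses and on cell debris, and raise intermediate filaments such as Gfap when the tissue is injured or inflamed. Interleukin-18 is a cytokine made from a precursor that inflammasomes cleave, and microglia are one of its sources in brain. In whole brain, fewer cells of a type and less RNA per cell cannot be told apart.

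The probes shown are 60 bases long, and the share of G and C in it is given here because the differences between arrays varied with it over all genes, as described below. The first 30 bases of the probes that carry the main contrasts are shown with G and C in capitals, read on the plus strand of mm9. For Id3 the annotated interval is longer than the 60-base probe, and for Clu it is shorter. Those 2 probes therefore do not match their intervals base for base. Aldh1l1 and Clu represent the genes that were higher in 12-week knockouts, Gja1 and Id4 those that were lower, Id3 a gene whose change had opposite signs at the 2 ages, and the Slc4a4 probes a gene whose probes disagreed in size.
Aldh1l1, chr6:90549091-90549150, 45% G and C: aatCaGaaGtGGCtCCaaGtGGaGtGaGCa
Clu, chr14:66600325-66600382, 51.7%: CtCGGGaaGaaCtGattCCCCCaCGCaaCt
Gja1, chr10:56109814-56109873, 35%: CtaCaCattaaCtCaGaaCttGtattCtGa
Id4, chr13:48358668-48358727, 43.3%: tGCtaaGtaGaaGaGCaatCGtGaatCCaa
Id3, chr4:135700075-135700249, 55%: tCCGCatCtCCCGatCCaGaCaGCtGaGCt
Slc4a4, A_55_P1967776, chr5:89663838-89663897, 45%: attCCtCGaaCGCCaCaCatCatGCtGata
Slc4a4, A_55_P1959228, chr5:89663826-89663885, 41.7%: aaGatCCtCaaCattCCtCGaaCGCCaCaC
Slc4a4, A_52_P457567, chr5:89668602-89668661, 15%: aaGaaGatGaGatattttaGCatttatatt

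The arrays lay on 2 slides, which the file headers show. Slide 2 held 4 arrays, every 12-week knockout and 6-week knockout replicate 3, and slide 1 held the other 8. At 12 weeks genotype and slide therefore coincide, and a fit with slide as a block rests on 6-week knockout replicate 3 alone. The headers also give a slide column. All 6-week wild types and 12-week wild-type replicate 1 lay in column 2, and every other array lay in column 1. At 6 weeks genotype and slide column therefore coincide, also within slide 1. The share of spots well above background, controls aside, ran from 65.9% to 76.2% per array, and the number of arrays limits the precision of every value. Values are log2 signals relative to the 75th percentile of the same array, differences are log2 changes ± SE from limma with 3 arrays per group, and a gene is called at an adjusted p under 0.05 over all 26495 genes. Il18 itself fell by 1.84 at 6 weeks and by 1.94 at 12 weeks in the arrays labelled knockout (limma, adjusted p = 2.29e-05 and 1.2e-05), with the 2 groups apart at both ages. Its probe still read -0.32 to -0.17 on the knockout arrays, beside 1.51 to 1.93 on the wild-type arrays. The median signals of the arrays lay at -3.68 to -3.47. The labels do not say if the deletion covers this probe. The defining markers Gfap, Aqp4 and Slc1a3 were well above background in all groups.

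**Figure D1:**
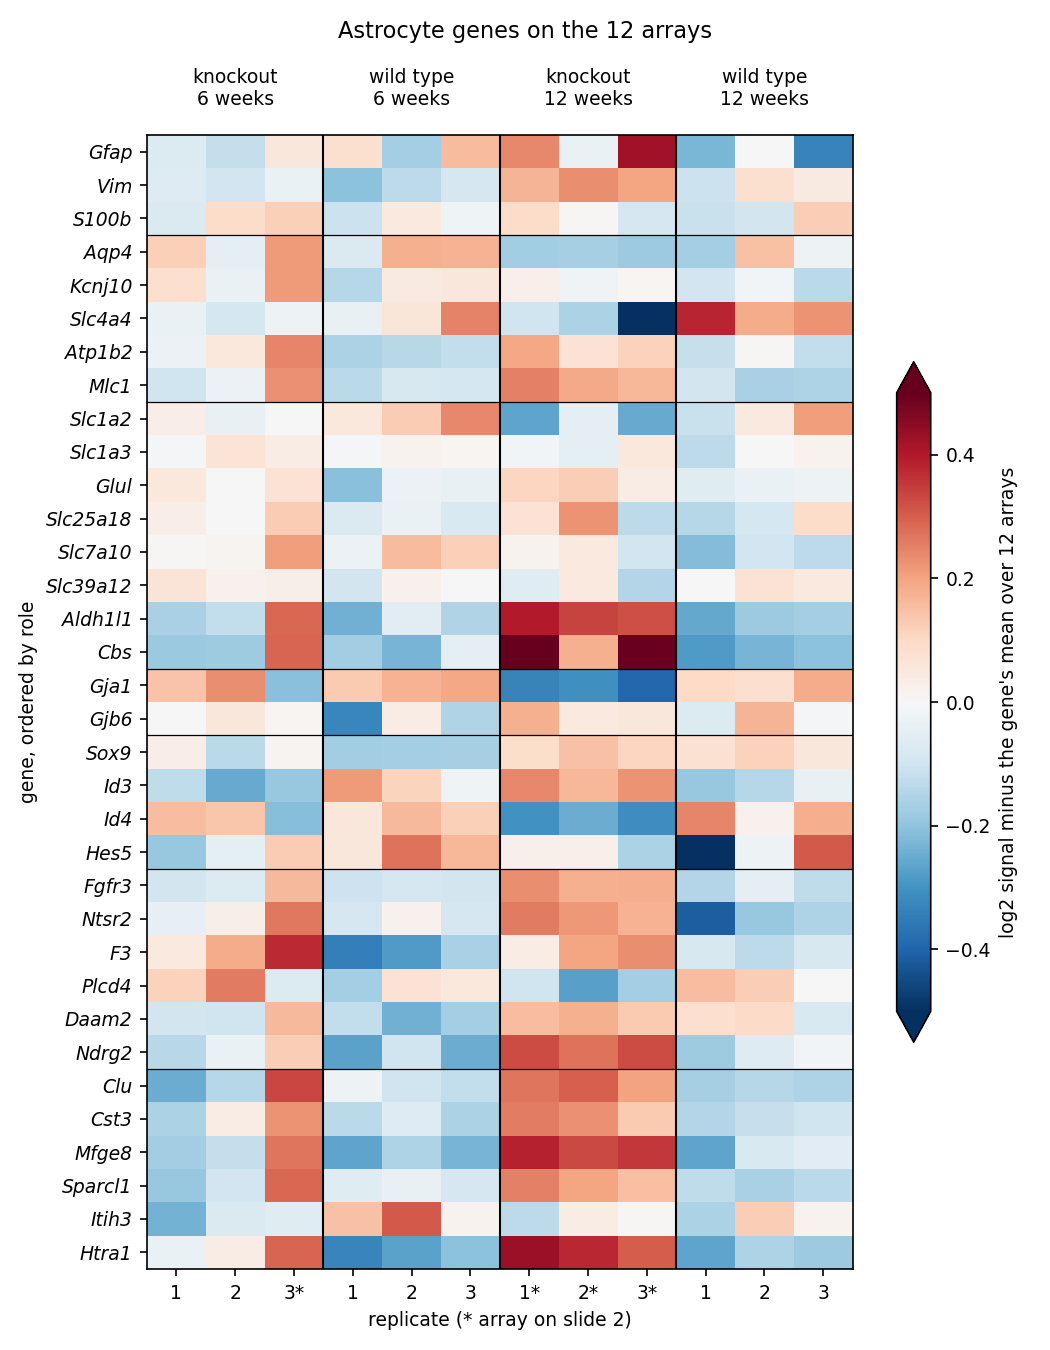
Relative log2 signal of the 34 genes on each of the 12 arrays, shown as the difference from the gene's mean over 12 arrays (colour, log2), with genes in rows by role and arrays in columns by group. Arrays on slide 2 carry an asterisk, and the column of 6-week knockout replicate 3 resembles the 12-week knockout columns for Aldh1l1, Cbs, Gja1, Id4, Clu and Sparcl1.

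At 6 weeks the question was whether the loss of Il18 already changes astrocyte transcripts in young animals. The knockouts of this age lay in slide column 1 and the wild types in column 2, so genotype and slide column cannot be told apart. One gene passed, F3, tissue factor, the cell-surface trigger of blood clotting that astrocytes carry in brain, which was 1.38-fold higher in knockout, and none was called lower. Over all genes 0.925% were called at this age, so 1 of 34 lies near the background. The median change of the 34 genes was 0.10, against 0.04 over all genes, and 25 of the 34 changes were above 0. With quantile normalization 20 of the 34 were above 0, and their median was 0.019, against 0.036 over all genes. An unadjusted p under 0.05 was reached by 7 of the 34 and by 18.5% of all genes.

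F3 had relative signals of 2.89, 3.03 and 3.22 in the knockouts, against 2.502, 2.56 and 2.68 in wild type. Every knockout array lay above every wild-type array, and the highest was replicate 3 on slide 2. The change was 0.47 ± 0.09 (limma, adjusted p = 0.0495). With slide as a block, which at this age compares knockout replicates 1 and 2 with wild type on slide 1, it was 0.38 ± 0.08 (limma, adjusted p = 0.0908). Leaving out any 1 of the 6 arrays compared also ended the call, with adjusted p-values of up to 0.133. A second F3 probe gave 0.23 ± 0.13 in the fit over all probes (limma, adjusted p = 0.377).

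After F3, the genes with the smallest p at this age were Htra1, Id3, Atp1b2 and Itih3, and none of them passed. Htra1, a secreted serine protease, had 5.37, 5.44 and 5.69 in knockout against 5.07, 5.13 and 5.19 in wild type, a change of 0.37 ± 0.09 (limma, adjusted p = 0.0821). Id3, an inhibitor of basic helix-loop-helix transcription factors, had 1.80, 1.67 and 1.73 in knockout against 2.13, 2.03 and 1.90 in wild type, a change of -0.29 ± 0.08 (limma, adjusted p = 0.103). Both genes kept their groups apart, and Id3 differed by -0.29 with slide as a block as well. Atp1b2, a beta subunit of the sodium-potassium pump, gave 0.23 ± 0.08, and Itih3, a heavy chain of the inter-alpha-trypsin inhibitor, gave -0.28 ± 0.10.

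The used probes of the defining markers gave no call at 6 weeks. Gfap, the main intermediate filament protein of astrocytes, had 2.60, 2.54 and 2.72 in knockout against 2.74, 2.49 and 2.82 in wild type, and the groups overlapped. Its change was -0.07 ± 0.13, that of the water channel Aqp4 was 0.00 ± 0.10 and that of the glutamate transporter Slc1a3 was 0.03 ± 0.06. A second Aqp4 probe gave -0.32 ± 0.09 in the fit over all probes (limma, adjusted p = 0.128), with 2.72, 2.75 and 2.65 in knockout against 2.85, 3.04 and 3.17 in wild type, so its groups were apart where those of the used probe overlapped. Knockout and wild-type arrays did not overlap for 11 of the 34 genes, a share to be read beside the 23.7% of all genes that were apart. With slide as a block 0 of the 34 were called by limma and 5 had an unadjusted p under 0.05, while 0.498% of all genes were called.

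At 12 weeks, 14 of the 34 genes were higher and 3 were lower in knockout, and 17 were not called. This has to be read against a background in which 33% of all genes were called, 18.5% higher and 14.5% lower. Risers came from every role except the gap junctions, and the secreted proteins had the most, 5 of 6. The median change of the 34 genes was 0.13, against 0.02 over all genes. An unadjusted p under 0.05 was reached by 21 of the 34 and by 45.5% of all genes. With slide as a block 0 of the 34 were called by limma, 3 had an unadjusted p under 0.05, and 0.113% of all genes were called, so no change below can be told apart from a difference between slides by a test. The block values are therefore given beside each called gene. Quantile normalization in place of the 75th percentile turned the balance, with 5 of the 34 called higher and 7 lower and a median of -0.025. Under it Cbs, Aldh1l1, Htra1, Ntsr2, Id3, Slc4a4, Gja1 and Id4 kept their calls, S100b (-0.25), Aqp4 (-0.27), Slc1a2 (-0.39) and Plcd4 (-0.52) were called lower, and 9 calls ended. Those were Gfap (0.29), Mfge8 (0.19), Fgfr3 (0.12), Ndrg2 (0.10), Mlc1 (0.10) and Vim (0.08), and Clu, Cst3 and Sparcl1, which turned below 0.

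**Figure D2:**
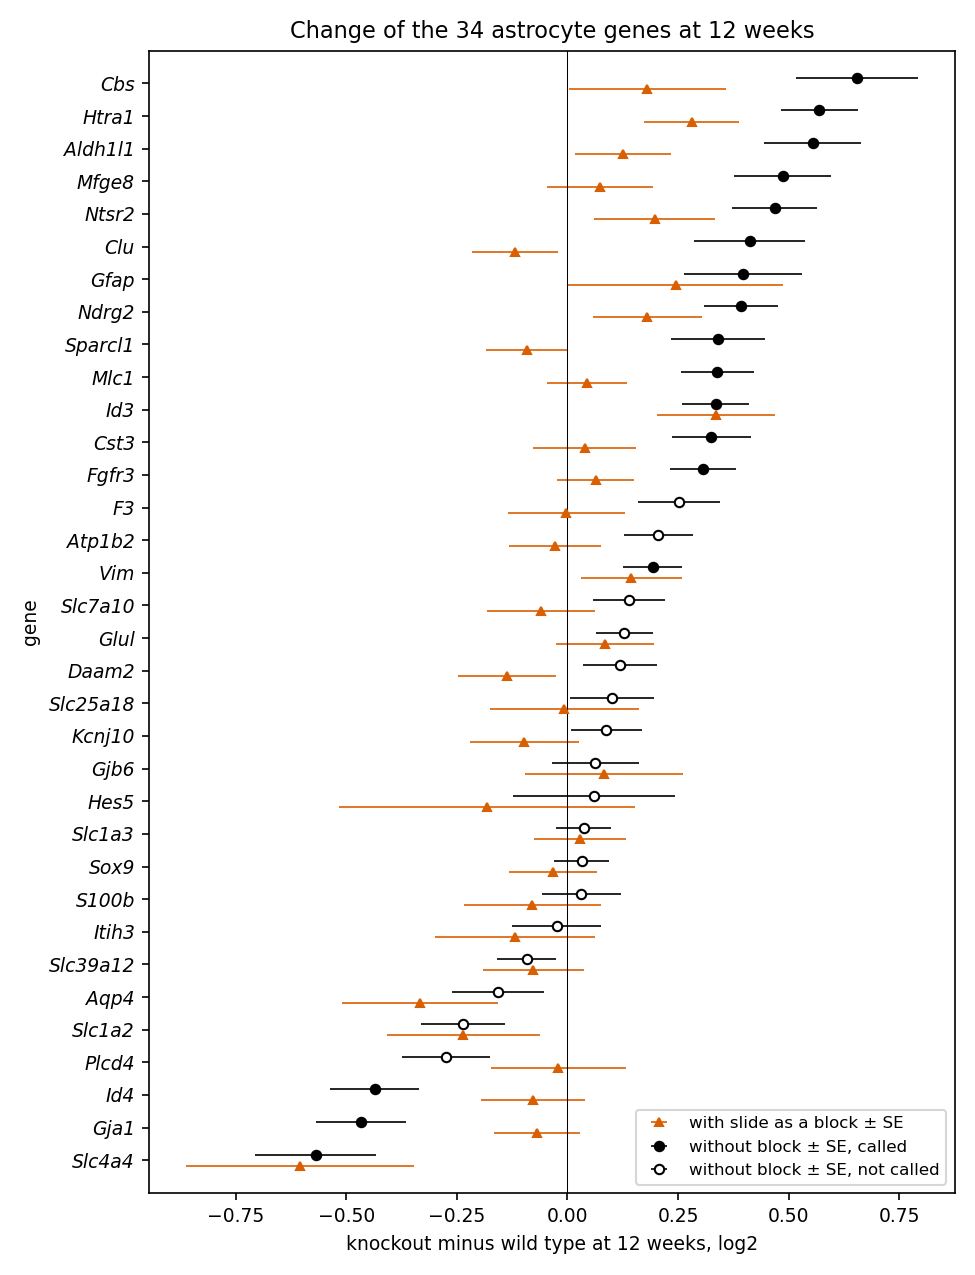
Log2 change of the 34 astrocyte genes in knockout against wild type at 12 weeks ± SE, without a block (circles, filled where called) and with slide as a block (triangles). Cbs leads at 0.65 and Slc4a4 is lowest at -0.57. Slc4a4, Id3, Vim and Gfap keep at least 0.5 of their change with the block, while Clu and Sparcl1 turn below 0.

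Among the filament and calcium-binding proteins, Gfap had 2.91, 2.63 and 3.08 in 12-week knockouts, against 2.43, 2.66 and 2.33 in wild type. Knockout replicate 2 lay below wild-type replicate 2, so the groups overlapped, and this was the 1 called gene of the 17 for which they did. Its change was 0.40 ± 0.13, or 1.32-fold (limma, adjusted p = 0.0440), and the slide block gave 0.24 ± 0.24. Leaving out knockout replicate 1 or 3, or wild-type replicate 1 or 3, ended the call, with adjusted p-values of up to 0.143, and so did leaving out 6-week knockout replicate 1 or 2 or 6-week wild-type replicate 1, which enter through the shared spread. Vim, the intermediate filament protein vimentin, had 2.74, 2.80 and 2.76 against 2.46, 2.65 and 2.61, a change of 0.19 ± 0.07 (limma, adjusted p = 0.0484; 0.14 with the slide block). The gap between its groups was small, and leaving out any 1 of the 6 arrays ended its call, with adjusted p-values of up to 0.152. S100b, a calcium-binding protein, gave 0.03 ± 0.09.

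Genes of water and ion handling moved in both directions. Slc4a4, a sodium bicarbonate cotransporter, had 2.59, 2.53 and 2.03 in 12-week knockouts, against 3.07, 2.88 and 2.92 in wild type. All knockout arrays were below all wild-type arrays, and knockout replicate 3 was lowest. The change was -0.57 ± 0.14, 1.48-fold lower (limma, adjusted p = 0.0132), and it was as large with slide as a block, at -0.61 ± 0.26 (limma, adjusted p = 0.616). In the 6-week knockouts replicate 3 on slide 2 had 2.66, beside 2.66 and 2.60 for replicates 1 and 2 on slide 1. Mlc1, a membrane protein of astrocyte endfeet whose loss causes a leukodystrophy with cysts in humans, had 5.82, 5.76 and 5.74 in knockout against 5.48, 5.41 and 5.42 in wild type. The arrays were well apart, with a change of 0.34 ± 0.08 (limma, adjusted p = 0.0140), but the change was 0.04 with slide as a block, and the call ended without knockout replicate 1 (adjusted p = 0.0505). Aqp4 gave -0.16 ± 0.10, the potassium channel Kcnj10 0.09 ± 0.08 and Atp1b2 0.21 ± 0.08, none of them called, and with the slide block they gave -0.33, -0.10 and -0.03.

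Of the 8 genes of glutamate, amino acid, metal and one-carbon handling, 2 rose and none fell. Cbs, cystathionine beta-synthase of the transsulfuration pathway, had 3.18, 2.79 and 3.11 in 12-week knockouts, against 2.33, 2.38 and 2.41 in wild type. All knockouts were higher, with the widest spread in the knockout group, and the change of 0.65 ± 0.14, or 1.57-fold, was the largest among the 34 genes (limma, adjusted p = 0.00877; 0.18 with slide as a block). Aldh1l1, a folate-metabolising dehydrogenase widely used as a pan-astrocyte marker, had 4.22, 4.16 and 4.15 in knockout against 3.57, 3.65 and 3.66 in wild type. Its groups were far apart relative to their spread, and the change was 0.56 ± 0.11 (limma, adjusted p = 0.00753), but 6-week knockout replicate 3 already had 4.11 on slide 2, beside 3.66 and 3.70 for replicates 1 and 2. The slide block gave 0.12 ± 0.11 for Aldh1l1.

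The glutamate transporters were not called. Slc1a3 had 4.21, 4.18 and 4.28 in 12-week knockouts against 4.09, 4.22 and 4.24 in wild type, with overlapping groups and a change of 0.04 ± 0.06. Slc1a2, the other main glutamate transporter of astrocytes, gave -0.24 ± 0.10 (limma, adjusted p = 0.0791; -0.24 with slide as a block), and was called without wild-type replicate 1 (-0.32, adjusted p = 0.0431). Glul, glutamine synthetase, gave 0.13 ± 0.07. The mitochondrial glutamate carrier Slc25a18, the amino acid transporter Slc7a10 and the zinc transporter Slc39a12 lay between -0.09 and 0.14 and were not called.

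Gja1, the main connexin of astrocyte gap junctions, was 1.38-fold lower in 12-week knockouts. It had 0.97, 0.99 and 0.91 in knockout against 1.40, 1.38 and 1.49 in wild type, with all knockout arrays below, a change of -0.47 ± 0.10 (limma, adjusted p = 0.00958). The 6-week knockouts had 1.44 and 1.53 on slide 1 and 1.09 on slide 2, and with slide as a block the 12-week change was -0.07 ± 0.10. Gjb6, the second astrocyte connexin of the list, gave 0.06 ± 0.10 and was not called.

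Among the 4 transcriptional regulators Id3 rose, Id4 fell, and the glial fate factor Sox9 (0.03 ± 0.06) and the Notch target Hes5 (0.06 ± 0.18) were not called. Id3 had 2.16, 2.09 and 2.15 in 12-week knockouts, against 1.73, 1.78 and 1.88 in wild type. All knockouts were above all wild types, and the change of 0.34 ± 0.08 (limma, adjusted p = 0.0107) kept its size at 0.34 ± 0.13 with slide as a block (limma, adjusted p = 0.603). Id4, a relative of Id3 and like it an inhibitor of basic helix-loop-helix factors, had 1.93, 1.98 and 1.92 in knockout against 2.47, 2.25 and 2.41 in wild type. Its groups were apart in the opposite direction, with a change of -0.44 ± 0.10 (limma, adjusted p = 0.0116; -0.08 with slide as a block), and 6-week knockout replicate 3 stood at 2.02 on slide 2, beside 2.38 and 2.37 on slide 1.

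Receptors and signalling proteins rose in 3 of 6 cases. Ntsr2, a neurotensin receptor, had 4.86, 4.81 and 4.77 in 12-week knockouts against 4.18, 4.41 and 4.44 in wild type, a change of 0.47 ± 0.10 (limma, adjusted p = 0.00802; 0.20 with slide as a block). Ndrg2, a cytoplasmic protein abundant in astrocytes, had 6.68, 6.63 and 6.68 against 6.18, 6.29 and 6.34, a change of 0.39 ± 0.08 (limma, adjusted p = 0.00883; 0.18 with slide as a block). Fgfr3, a fibroblast growth factor receptor, had 4.07, 4.02 and 4.02 against 3.69, 3.79 and 3.71, a change of 0.31 ± 0.07 (0.06 with slide as a block). In all 3 genes the groups were apart, and their calls held without each of the 6 arrays. F3 gave 0.25 ± 0.09 at this age, Daam2, a formin-related regulator of Wnt signalling, 0.12 ± 0.08, and the phospholipase C Plcd4 -0.27 ± 0.10, none called. The slide block gave -0.00, -0.14 and -0.02 for these 3 genes.

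Of the secreted proteins, Htra1, Mfge8, Clu, Sparcl1 and Cst3 rose and Itih3 did not (-0.02 ± 0.10). Htra1 had 5.83, 5.78 and 5.70 in 12-week knockouts, against 5.14, 5.25 and 5.22 in wild type, a change of 0.57 ± 0.09 (limma, adjusted p = 0.00474; 0.28 with slide as a block). Mfge8, which links exposed phosphatidylserine to phagocytes, had 6.27, 6.22 and 6.24 against 5.62, 5.81 and 5.83, a change of 0.49 ± 0.11 (limma, adjusted p = 0.0108; 0.07 with slide as a block). Both genes were above wild type on all knockout arrays. Clu, the extracellular chaperone clusterin, had 7.71, 7.74 and 7.64 against 7.27, 7.29 and 7.28, a change of 0.41 ± 0.13 (limma, adjusted p = 0.0303). Sparcl1, also known as hevin, which promotes excitatory synapses, had 8.36, 8.31 and 8.26 against 7.99, 7.95 and 7.98, a change of 0.34 ± 0.11 (limma, adjusted p = 0.0332). These 2 genes were tight within each 12-week group, yet 6-week knockout replicate 3 reached 7.77 for Clu and 8.40 for Sparcl1, as high as the 12-week knockouts. The slide block gave -0.12 for Clu and -0.09 for Sparcl1, with quantile normalization they gave -0.00 and -0.14, and neither call held without any 1 of the 6 arrays. Cst3, the protease inhibitor cystatin C, gave 0.33 ± 0.09 (limma, adjusted p = 0.0217; 0.04 with slide as a block, -0.07 with quantile normalization), and leaving out replicate 1 or 2 of either genotype ended its call, with adjusted p-values of up to 0.0707.

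**Figure D3:**
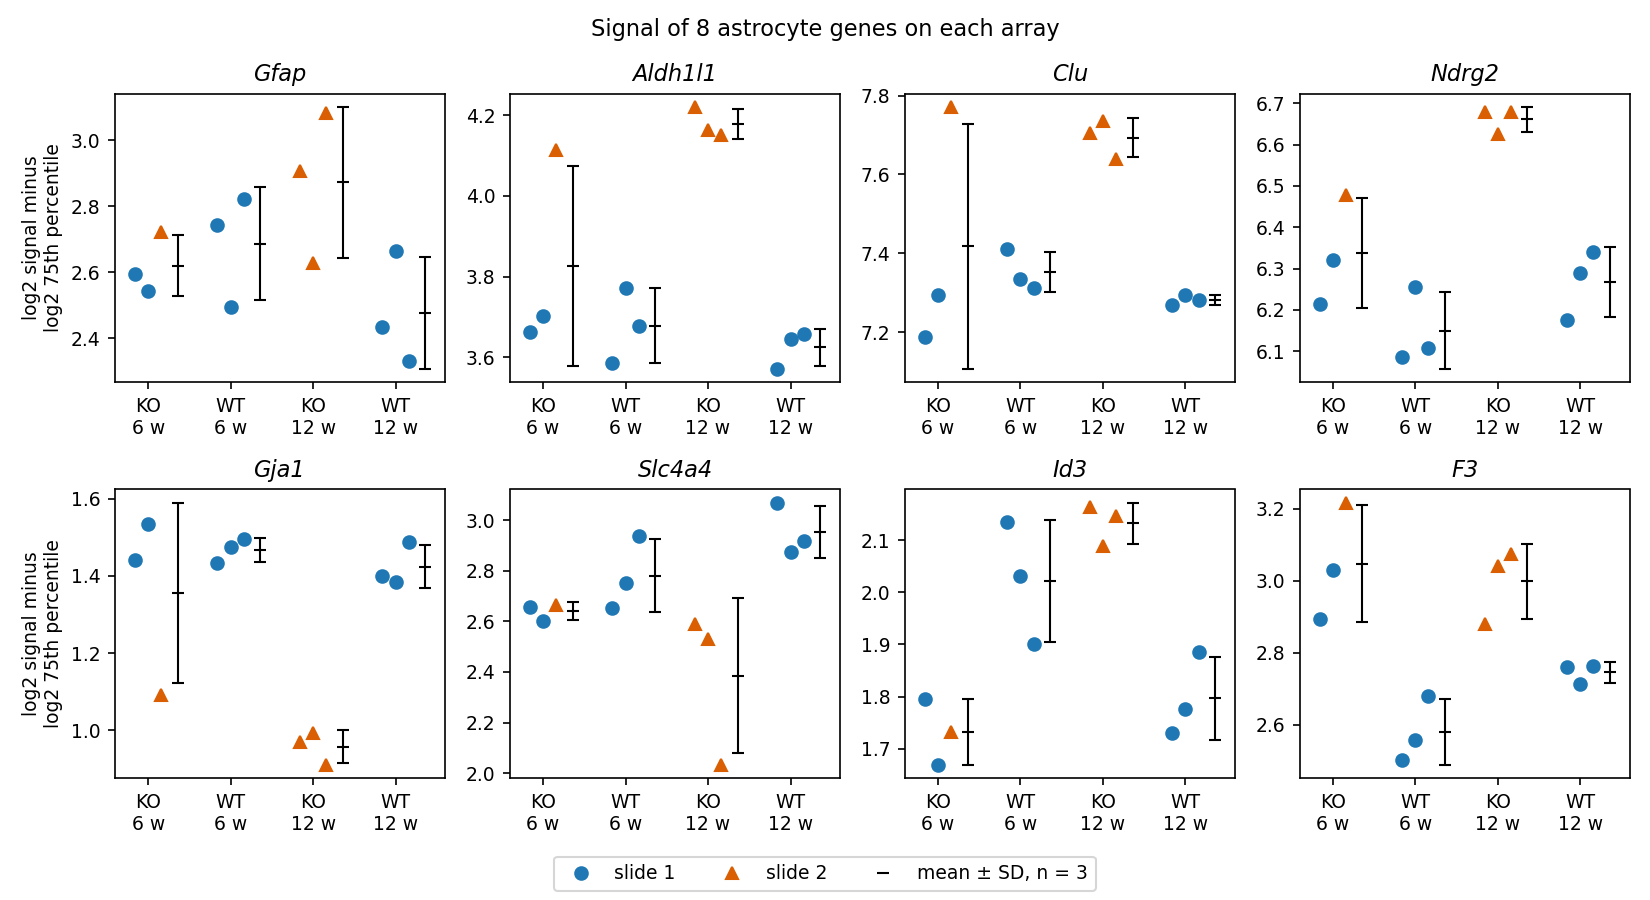
Relative log2 signal of 8 astrocyte genes on each array (vertical axis, log2 minus the array's log2 75th percentile), with circles for slide 1, triangles for slide 2 and bars for the group mean ± SD (n = 3). The single triangle among the 6-week knockouts lies with the 12-week knockouts for Aldh1l1, Clu and Gja1 (4.11, 7.77 and 1.09), and with its own group for Id3 and Slc4a4 (1.73 and 2.66).

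The arrays of 12-week knockouts and wild types did not overlap for 22 of the 34 genes, beside 52.4% of all genes. Of the 17 called genes, 11 were also called without each of the 6 arrays, and with slide as a block 15 kept their direction and 4 kept at least 0.5 of their size: Slc4a4, Id3, Vim and Gfap. For the other 13, and for none of those 4, 6-week knockout replicate 3 lay nearer the mean of the 12-week knockouts than the mean of its own group's replicates 1 and 2. Over all genes called at 12 weeks this was so for 72.8%. The block values and this nearness both use the difference of replicate 3 from replicates 1 and 2, so they are not independent of each other. The difference between replicate 3 and replicates 1 and 2 had the same sign as the 12-week change in 29 of 34 astrocyte genes and in 76.3% of all genes. Across the 34 genes, which are not independent replicates and share the same arrays, the 2 differences correlated with r = 0.81 (rho = 0.80), and across 26447 genes with r = 0.63. The part of the slide in the 12-week changes cannot be told apart from that of genotype. The difference of replicate 3 from replicates 1 and 2, called the slide difference below, sets 1 animal against 2 others. It therefore also holds what is particular to that animal, and the scan changed with the slide. The fit with slide column as a block called 9 of the 34 higher and 4 lower (22.4% of all genes called).

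**Figure D4:**
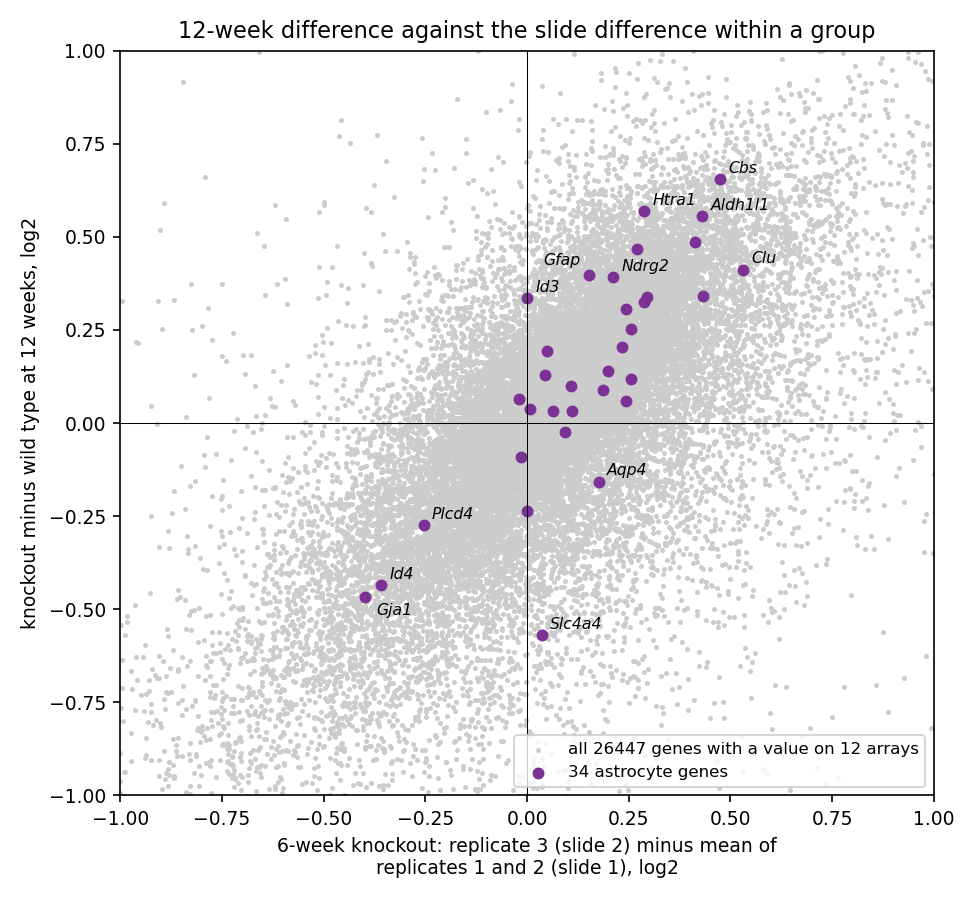
Knockout minus wild type at 12 weeks (vertical axis, log2) against 6-week knockout replicate 3 minus the mean of replicates 1 and 2 (horizontal axis, log2), for the 34 astrocyte genes (large points) and all genes with a value on 12 arrays (grey; those beyond the axes are not drawn). For 29 of the 34 both differences have the same sign, while Id3 and Slc4a4 have slide differences of -0.00 and 0.04 beside 12-week changes of 0.34 and -0.57.

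Base composition of the probe went along with both differences over all genes. Probes with at most 35% G and C had a median 12-week change of -0.11 and a median slide difference within the 6-week knockouts of -0.03, against 0.19 and 0.18 for probes above 50%. The 6-week comparison was flat, with 0.03 and 0.02 for the same classes. The printed probes show this order only in part. On slide 2 Clu at 51.7% and Aldh1l1 at 45% were higher within the 6-week knockouts and Gja1 at 35% was lower, but Id4 at 43.3% was lower too, and Id3 at 55% and the used Slc4a4 probe at 45% differed by -0.00 and 0.04. Across the 34 genes the share of G and C correlated with the 12-week change at r = 0.34, and across all genes at r = 0.24. Its part in the result was not tested.

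**Figure D5:**
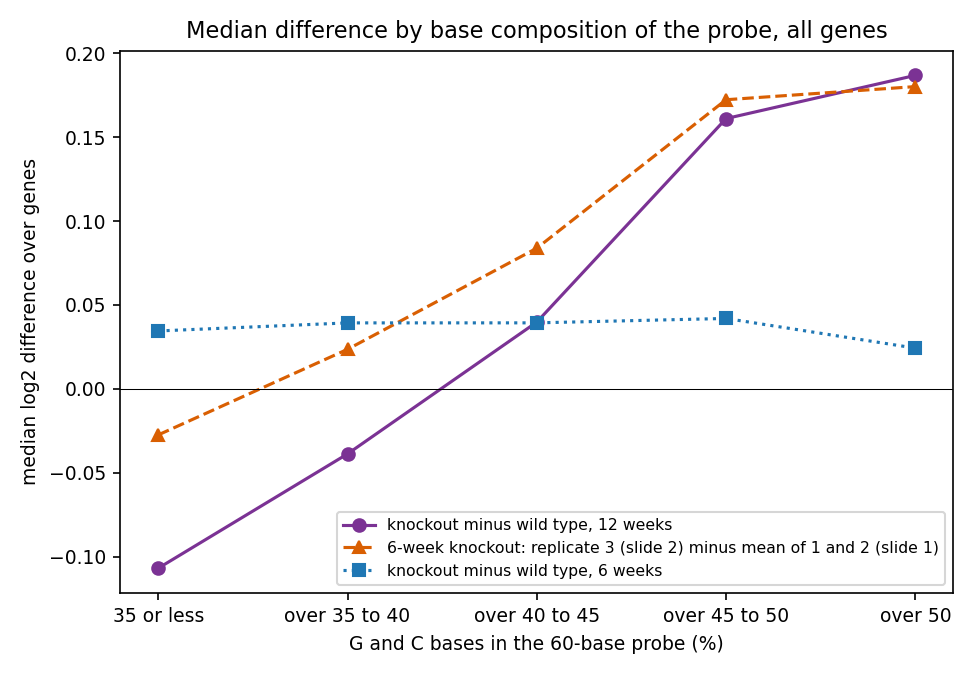
Median log2 difference over all genes (vertical axis) by the share of G and C in the probe (horizontal axis, percent), for knockout minus wild type at 12 weeks, for 6-week knockout replicate 3 minus replicates 1 and 2, and for knockout minus wild type at 6 weeks. The first and second lines climb together to 0.19 and 0.18 above 50% G and C, and the third stays between 0.02 and 0.04.

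More than 1 probe was above background for 9 of the genes, with 48 probes in all for the 34 genes. For Slc4a4 the 3 probes shown above all fell, the used probe and one that shares 48 of its 60 bases with changes of -0.57 and -0.53, and the probe with 15% G and C with a change of -2.06 ± 0.39. The last of these had relative signals of -2.67, -2.83 and -2.64 in 12-week knockouts against -0.54, -0.77 and -0.67 in wild type. It also had -2.47 in 6-week knockout replicate 3, beside -0.71 and -0.58 in replicates 1 and 2, and its change was -0.23 with slide as a block. The 2 overlapping probes are not independent of each other, and with slide as a block they gave -0.61 and -0.58.

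For Gfap the other probes gave 0.55 ± 0.17 (limma over all probes, adjusted p = 0.0322) and 0.46 ± 0.18 (adjusted p = 0.0779), beside 0.40 for the used one, so all 3 were above 0. For Aqp4 the second probe fell by 0.61 ± 0.09 (limma over all probes, adjusted p = 0.00510; -0.53 with slide as a block), with 2.23, 2.20 and 2.20 in knockout against 2.81, 2.92 and 2.73 in wild type. The used Aqp4 probe gave -0.16, so the 2 probes differed in call but not in direction. For Plcd4 the used probe gave -0.27, while 2 others rose, by 0.28 ± 0.08 and 0.41 ± 0.09, and the last gave -0.03 ± 0.23. A second F3 probe gave -0.23 ± 0.13 at 12 weeks, opposite to the used one, and neither passed. The probes of Fgfr3 (0.31 and 0.22) and Ntsr2 (0.47 and 0.21) ran the same way, and those of Slc1a2 (-0.24, -0.12 and 0.05) and Slc39a12 (-0.09 and 0.18) did not pass.

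Age was compared next, first in wild type, where all arrays lie on slide 1 but not in the same slide column. The 6-week arrays and 12-week replicate 1 lay in column 2, and 12-week replicates 2 and 3 in column 1. None of the 34 genes was called between 12-week and 6-week wild type by limma, 4 had an unadjusted p under 0.05, beside 14.7% of all genes, and 0.638% of all genes were called. The median change was -0.01. Sox9 came closest, with 0.69, 0.73 and 0.67 at 12 weeks against 0.44, 0.44 and 0.45 at 6 weeks, all 12-week arrays being higher, at 0.25 ± 0.06 (limma, adjusted p = 0.0992). Id3 gave -0.23 ± 0.08, Slc7a10 -0.23 ± 0.08, Daam2 0.21 ± 0.08 and Vim 0.15 ± 0.07. Gfap gave -0.21 ± 0.13, Aqp4 -0.11 ± 0.10 and Slc1a3 -0.05 ± 0.06. The groups were apart for 8 of 34 genes, beside 24.8% of all genes.

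In knockout 1 of the 34 genes changed with age, against a background of 2.01%. An unadjusted p under 0.05 was reached by 13 of the 34 and by 26.8% of all genes. Id3 was 1.32-fold higher at 12 weeks, with the 2.16, 2.09 and 2.15 given above against 1.80, 1.67 and 1.73 at 6 weeks (0.40 ± 0.08; limma, adjusted p = 0.0383). The change was also 0.40 within slide 2, where it compares the 12-week arrays with 6-week replicate 3 (limma with slide as a block, adjusted p = 0.370). Leaving out 12-week replicate 1 or 3 or 6-week replicate 1 or 2 ended its call, with adjusted p-values of up to 0.165. So did leaving out 12-week wild-type replicate 2 or 3 or 6-week wild-type replicate 1 or 2. Vim (0.26 ± 0.07, adjusted p = 0.0620), Gja1 (-0.40 ± 0.10), Ndrg2 (0.32 ± 0.08) and Mfge8 (0.36 ± 0.11) did not pass in limma. Gfap gave 0.25 ± 0.13, Aqp4 -0.27 ± 0.10 and Slc1a3 -0.03 ± 0.06. The groups were apart for 14 of 34 genes, beside 26.4% of all genes. With slide as a block 0 of the 34 were called by limma and 4 had an unadjusted p under 0.05, with 0.0717% of all genes called. Without 6-week replicate 3, so that age and slide coincide, 13 rose and 3 fell, where 28% of all genes were called, 16.2% higher and 11.8% lower.

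The change of the knockout effect between the ages was tested directly, and none of the 34 genes was called by limma. Of all genes 0.189% were called, 0.0453% higher and 0.143% lower. An unadjusted p under 0.05 was reached by 8 of the 34 and by 19.6% of all genes. With slide as a block 0 were called, 2 had an unadjusted p under 0.05, and 0.0717% of all genes were called. Id3 came closest at 0.63 ± 0.11 (limma, adjusted p = 0.0537; 0.63 with the slide block, adjusted p = 0.192). Its genotypes lay apart in opposite directions at the 2 ages, as did those of 1.35% of all genes, and its ages in opposite directions in the 2 genotypes, as did those of 2.71%. The next smallest p-values were those of Plcd4 (-0.39 ± 0.14), Cbs (0.53 ± 0.20), Aldh1l1 (0.41 ± 0.16) and Ntsr2 (0.34 ± 0.13), and Gfap gave 0.46 ± 0.19, Aqp4 -0.16 ± 0.15 and Slc1a3 0.01 ± 0.09. Without 6-week knockout replicate 3, 9 were called higher and 3 lower, where 17.8% of all genes were called, 10.3% higher and 7.55% lower.

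A second list held 50 other astrocyte genes. Of the 48 measured, 19 rose and 4 fell at 12 weeks, beside the 33% of all genes called, with a median of 0.11 (0.02 with slide as a block, where 0 of the 48 were called by limma). The largest were the orphan receptor Gpr37l1 (0.63 ± 0.14; 0.24 with slide as a block), the cytochrome Cyp2d22 (0.58 ± 0.19; 0.19), the lipid carrier Apoe (0.58 ± 0.11; 0.17) and, downward, the receptor-tyrosine-kinase regulator Lrig1 (-0.74 ± 0.17; 0.01). At 6 weeks 1 of the 48 was called, Dio2, the deiodinase that activates thyroid hormone (0.43 ± 0.08; limma, adjusted p = 0.0393). The slide block gave 0.47 and ended this call (limma, adjusted p = 0.0566). None of the 48 was called with age in wild type, and 1 was in knockout, the glycogen phosphorylase Pygb (0.29 ± 0.06; limma, adjusted p = 0.0499), whose call the slide block also ended (0.32, adjusted p = 0.362).

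Genes known from reactive astrocytes, 29 of 35 listed being measurable, included 8 that rose and 5 that fell at 12 weeks, where 18.5% of all genes were called higher and 14.5% lower. With the slide block 0 of the 29 were called by limma, and their median was -0.05, against 0.10 without it. The largest changes were those of the interferon-induced chemokine Cxcl10 (-1.24 ± 0.32; -0.63 with slide as a block), the small heat-shock protein Hspb1 (0.90 ± 0.17; 0.56), the protease inhibitor Timp1 (0.73 ± 0.17; 0.68) and the prostaglandin synthase Ptgs2 (0.61 ± 0.08; 0.54). Ptgs2, which neurons also express, was called at 6 weeks too (0.50 ± 0.08, adjusted p = 0.0246; 0.47 with slide as a block, where adjusted p = 0.0622). With age 5 of the 29 rose in knockout, beside 2.01% of all genes called, and 0 of the 29 were called with the slide block. Among the 5 were Timp1 (1.12 ± 0.17; 1.08 with the slide block), Hspb1 (0.80 ± 0.17; 0.57), Sphk1 (0.61 ± 0.12; 0.40) and H2-D1 (0.51 ± 0.09; 0.47). In wild type none was called without the block, and Amigo2 was called with it (0.37; limma, adjusted p = 0.0734 without and 0.0423 with the block). The median change with age in wild type was 0.16. Several of these transcripts are made by other cell types as well.

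Some markers of other cells in the brain were also called higher at 12 weeks, as were 18.5% of all genes, and none of these calls remained with the slide block. Of the microglia markers 4 of 7 rose (median 0.29; 0.07 with slide as a block), as did 4 of 7 mature oligodendrocyte markers (0.44; -0.15), 2 of 8 neuron markers (0.25; -0.05) and 2 of 5 endothelial markers (0.27; 0.10). As log2 of the summed relative signal, microglia markers ran from 6.54 to 6.63 in knockouts against 6.22 to 6.41 in wild types, and endothelial markers from 4.13 to 4.32 against 3.76 to 3.95. Neuron markers ran from 8.56 to 8.68 against 8.41 to 8.45 and oligodendrocyte markers from 8.15 to 8.17 against 8.06 to 8.11. The 3 astrocyte markers overlapped, at 4.92 to 5.08 against 4.83 to 5.02. These sums are given without a slide block, and 52.4% of all single genes were apart at this age. In the 6-week knockouts, which include the replicate 3 array on slide 2, microglia markers ran from 6.35 to 6.66. Neuron markers ran there from 8.46 to 8.785 and oligodendrocyte markers from 8.19 to 8.54.

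At 6 weeks the endothelial markers were at 3.88 to 4.22 in knockouts against 3.53 to 3.57 in wild types. Of these 5 markers 1 was called, the tight junction gene Cldn5, which rose by 0.66 ± 0.09. Ependymal markers were at 2.28 to 2.39 against 2.61 to 2.65. Of these 5 markers 1 was called, the ciliary gene Ccdc153, with a change of -1.66 ± 0.12 (-1.70 with slide as a block). Tmem212 gave -0.44, Foxj1 -0.12, Rarres2 -0.10 and Dynlrb2 -0.07, none of them called. Over all genes 0.925% were called at this age. Oligodendrocyte precursor markers were at 4.18 to 4.28 against 3.96 to 4.01, and neuroblast markers at 1.551 to 1.67 against 1.19 to 1.549. Astrocyte markers were at 4.998 to 5.07 against 4.99 to 5.07. No marker was called at 12 weeks among oligodendrocyte precursors, choroid plexus or neuroblasts, and of the ependymal markers Ccdc153 fell. All markers of these lists passed the filter on dim probes, and their part in the astrocyte values was not tested.

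Within slide 1, whose 8 arrays have no 12-week knockout, the genes whose relative signal was most like that of Gfap were Cbs (r = 0.70, rho = 0.64), Fgfr3 (0.50 and 0.40), Slc7a10 (0.46 and 0.40), Aqp4 (0.41 and 0.26) and Kcnj10 (0.35 and 0.31). Other members ran against Gfap, most of all Id4 (-0.70 and -0.86), Ndrg2 (-0.68 and -0.62) and S100b (-0.51 and -0.33). The list as a whole therefore did not vary with Gfap in 1 direction. These are descriptions over 8 arrays of 3 groups. Over all 12 arrays, in which slide and group partly coincide, the order was another. Cbs was at 0.78, Fgfr3 at 0.66, Aldh1l1 at 0.59, Clu at 0.57 and Mlc1 at 0.57, while Slc7a10 had 0.20 and Aqp4 -0.18.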

How the data were processed

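Total RNA of 12 whole brains was measured on 12 arrays. The authors' deposited signals are fluorescence intensity in arbitrary units, for which the submitters' processing notes name Feature Extraction 10.7.3.1 from Agilent. Other deposited columns are other values, 0 or 1 per the file headers, that mark spots well above background or outlying. The deposited value table, also an intensity, differed from the processed signal by at most 0.498%. Probe positions are mm9.

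From these, log2 of the processed signal minus log2 of the array's 75th percentile was taken, outlier spots were left out, and repeated spots were averaged. Probes were kept if every array of 1 or more groups (3 each) had them well above background, and the brightest probe stood for its gene (37198 probes, 26495 genes). limma 3.58.1 in R 4.3.3 fitted 1 mean per group over 12 arrays with 8 residual degrees of freedom. P-values are two-sided and adjusted by Benjamini-Hochberg over all genes in each comparison. The script was tested on simulated data.

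Gene members, lists and settings were chosen with earlier results of these data known. Named genes are Gfap, Aqp4, Slc1a3, called genes by size or the 5 smallest p, genes with disagreeing probes, Il18, and up to 4 called genes per list. Likeness to Gfap was taken within slide 1 because the slides form separate clusters. Replicates were read as separate animals, and equal replicate numbers did not pair the samples.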

Additional observations from a re-analysis of the deposited data

Results flagged for a closer look

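Id3 was picked out because its groups lay apart in opposite directions at the 2 ages. Every 6-week knockout array was below every 6-week wild-type array (1.67 to 1.80 against 1.90 to 2.13), and every 12-week knockout array was above every 12-week wild-type array (2.09 to 2.16 against 1.73 to 1.88). With age the knockouts were higher and the wild types lower, again without overlap. The test of the difference gave 0.63 ± 0.11 and did not pass (limma, adjusted p = 0.0537). Of all genes, 1.35% were apart in opposite directions between the genotypes at the 2 ages, and 2.71% between the ages in the 2 genotypes. The 6-week knockout array on slide 2 had 1.73, beside 1.80 and 1.67 on slide 1. At 6 weeks the genotypes also lay in different slide columns, which cannot be told apart from genotype.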

How the results depend on the processing

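The counts of astrocyte genes called moved as follows. At 6 weeks the count of 1 became 0 with slide as a block, within slide 1, with slide column as a block, without a filter on dim probes, with the mean of all probes and with only the groups compared, 3 with quantile normalization (2 higher, 1 lower) and 2 with median scaling. At 12 weeks 17 became 0 with slide as a block, 21 with normexp, 13 without the filter or with slide column as a block, and 18 with the mean of all probes. With age in knockout 1 became 0 with slide as a block, with the replicate block, with median scaling, without the filter and with only the groups compared, and 2 with normexp correction. For the difference between ages 0 became 1 on probes above background on all 12 arrays. Leaving out each array gave 0 at 6 weeks, 11 to 20 at 12 weeks, 0 to 16 with age in knockout and 0 to 12 for the difference between ages. The high ends are without 6-week knockout replicate 3, the only array that separates slide from group. Counts with slide column as a block depend on 12-week wild-type replicate 1, the only array of its group in column 2.

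Replicate numbers did not pair the arrays (18 same-number pairs, r from -0.20 to 0.11), and the replicate block called 15 at 12 weeks, 1 at 6 weeks and 0 with age in either genotype. Quantile normalization called 5 higher and 7 lower at 12 weeks, against 14 and 3, and turned the median of the 34 genes to -0.025; median scaling called 17 and 2 and put the median of all genes at 0.14, against 0.02; slide as a block turned the median to -0.014.

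Single genes that changed sign included some near 0 and some called at 12 weeks, among them Clu (0.41) and Sparcl1 (0.34). At 6 weeks Gfap turned with median scaling (0.030), the mean of its probes (0.034) and its other probes (0.048 and 0.12), and left-out arrays gave -0.16 to 0.0017. Aqp4 turned with slide as a block or slide 1 alone (-0.057), slide column (-0.23), normexp (-0.016), quantile (-0.057), its second probe (-0.32) and the mean of probes (-0.16), with left-out arrays from -0.081 to 0.073. Slc1a3 turned with slide column (-0.12) and quantile (-0.056), and at 12 weeks with the same settings (-0.010 and -0.14; left-out arrays -0.010 to 0.064). At 12 weeks Clu turned with slide as a block (-0.12) and quantile (-0.0012), and Sparcl1 likewise (-0.091 and -0.14). Cst3, also called at 12 weeks, turned with quantile. With age in wild type 1 Gfap probe gave 0.050 and Slc1a3 0.021 with normexp (left-out arrays -0.074 to 0.00050), and in knockout Slc1a3 gave 0.0040 with median scaling. For the difference between ages Slc1a3 gave -0.051 with normexp and -0.080 with quantile (left-out arrays -0.035 to 0.039), and 2 Plcd4 probes gave 0.12 and 0.23. The causes were not tested. Slide 1 alone could give no value for comparisons with 12-week knockouts. Fitting each probe on its own was chosen after seeing the data.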
